A study of Mus musculus with 8 samples.

Results

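Glycolytic enzymes with a germ cell form and the somatic enzymes they stand beside were followed through meiosis in mouse testis. The 10 genes listed are Hk1, Gpi1, Aldoa, Gapdhs, Gapdh, Pgk2, Pgk1, Pgam2, Ldhc and Ldha, and all probe sets that the platform annotation names with 1 of these symbols were taken, 23 of the 45101 on the array. A probe set is a group of short probes that together measure a transcript. Of the 23, 16 name a listed gene alone, 4 name it together with other genes and 3 are control probe sets for Gapdh, and 9 of the 10 genes had a probe set. Gpi1, which encodes glucose-6-phosphate isomerase, has no probe set under that symbol in the annotation used here and gives no value.

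The arrays compared late spermatocytes and round spermatids of male Hr6b-/- mice (Hr6b knockout) with the same cells of male Hr6b+/+ mice (wild type). All mice had the FVB background and were 4 to 5 weeks old. Hr6b, now named Ube2b, encodes a ubiquitin-conjugating enzyme, and the knockout lacks it in every cell while it keeps the X-linked paralog Ube2a. The knockout males had knockout mothers and the wild type males had wild type mothers. Cells were separated by sedimentation at unit gravity and on Percoll, with 2 arrays for each of the 4 groups. The number of mice behind an array is not given in the sources used here, and the p-values reflect the spread between these arrays alone, which may be technical.

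Glycolysis converts glucose to pyruvate and lactate. Spermatocytes and round spermatids are known to prefer lactate from Sertoli cells as fuel, while the mature sperm tail makes ATP by glycolysis along the fibrous sheath. The X chromosome is silenced in spermatocytes, so the X-linked gene Pgk1 is shut down in meiosis, and Pgk2, an autosomal retrocopy of Pgk1, provides phosphoglycerate kinase afterwards. Ldhc arose from a duplication of an Ldh gene and encodes the lactate dehydrogenase of germ cells. Gapdhs encodes a glyceraldehyde-3-phosphate dehydrogenase that is bound to the fibrous sheath. Hk1 and Aldoa have no separate germ cell gene in this list, but germ cells make Hk1 and Aldoa transcripts with their own first exons, which these probe sets do not tell apart.

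Promoter windows from RefSeq (GRCm38.p6, 250 bases before to 50 bases after the gene start) were found for all 10 genes, 16 windows in all. Those of 2 isozyme pairs and of Gapdhs are shown because the results turn on these genes. Capitals mark the CCAAT box (CCAAT), the GC box (GGGCGG), the cyclic AMP response element (TGACGTCA) and its core (TGACG, which the full element also holds on both strands), searched on both strands. The Pgk2 window is at chr17:40208560-40208859 on the minus strand, that of Pgk1 at chrX:106186850-106187149 on the plus strand, that of Ldhc at chr7:46861013-46861312 on the plus strand, that of Ldha at chr7:46845554-46845853 on the plus strand and that of Gapdhs at chr7:30743632-30743931 on the minus strand.
Pgk2: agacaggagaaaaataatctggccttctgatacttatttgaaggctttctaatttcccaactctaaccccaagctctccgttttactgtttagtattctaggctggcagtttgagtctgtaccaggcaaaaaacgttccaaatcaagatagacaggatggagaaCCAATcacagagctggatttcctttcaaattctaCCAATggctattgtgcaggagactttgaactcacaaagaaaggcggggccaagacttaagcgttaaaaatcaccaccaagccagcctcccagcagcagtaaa
Pgk1: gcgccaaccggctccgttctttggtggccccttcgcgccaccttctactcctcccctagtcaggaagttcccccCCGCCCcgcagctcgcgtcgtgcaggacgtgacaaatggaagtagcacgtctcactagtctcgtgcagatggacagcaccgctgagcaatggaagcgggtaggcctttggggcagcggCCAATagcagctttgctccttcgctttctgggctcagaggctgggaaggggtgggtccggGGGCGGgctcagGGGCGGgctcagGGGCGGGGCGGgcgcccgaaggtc
Ldhc: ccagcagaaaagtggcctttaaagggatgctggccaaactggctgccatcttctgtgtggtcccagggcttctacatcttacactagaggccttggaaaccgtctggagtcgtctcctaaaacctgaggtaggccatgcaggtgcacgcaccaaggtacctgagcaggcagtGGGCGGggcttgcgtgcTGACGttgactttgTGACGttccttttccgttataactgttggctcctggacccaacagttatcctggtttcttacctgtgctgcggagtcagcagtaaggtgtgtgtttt
Ldha: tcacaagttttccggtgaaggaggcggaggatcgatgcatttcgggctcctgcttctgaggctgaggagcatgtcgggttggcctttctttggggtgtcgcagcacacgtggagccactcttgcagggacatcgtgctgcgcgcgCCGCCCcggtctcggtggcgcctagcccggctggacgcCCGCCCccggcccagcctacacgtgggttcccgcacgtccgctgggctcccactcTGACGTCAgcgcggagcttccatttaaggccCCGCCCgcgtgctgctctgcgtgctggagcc
Gapdhs: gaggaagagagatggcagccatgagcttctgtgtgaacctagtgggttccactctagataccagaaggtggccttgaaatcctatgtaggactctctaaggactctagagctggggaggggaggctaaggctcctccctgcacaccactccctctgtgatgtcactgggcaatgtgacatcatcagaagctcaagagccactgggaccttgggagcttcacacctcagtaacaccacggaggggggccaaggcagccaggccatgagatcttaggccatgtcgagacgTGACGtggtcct
The Pgk2 window held 2 CCAAT boxes, the first bases of which lie at -86 and -52 from the gene start. The Pgk1 window held 1 CCAAT box, at -58, and 5 GC boxes, of which 4 lie after the start. Ldhc had 2 core motifs, at -61 and -47, and 1 GC box at -78. The window shown for Ldha had the full cyclic AMP response element at -12 and 3 GC boxes, and that of Gapdhs had 1 core motif after the start. Ldhc, Ldha and Gapdhs each have a second window, which is not shown. Those of Ldhc and Gapdhs held none of these motifs, and that of Ldha held 1 core motif, at -143. Over all 32851 promoters of this length, 37.4% held a CCAAT box, 35.7% a GC box, 20.8% the core motif and 1.79% the full element. Of the 16 windows of the listed genes, 5, 6, 4 and 1 held these motifs, and the TATA box (TATAAA) was in 0 of 16 windows and in 13.6% of all. Windows 2 and 3 of Aldoa overlap and share their GC boxes and CCAAT box, which count for both windows. A match is a description of the letters only.

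A value is called signal when it is on the linear scale of the RMA values. It is not comparable between probe sets, so levels are compared for the same probe set only. On each array, 33.2% to 35.4% of the probe sets reached a signal of 100. Ube2b fell to 1006 ± 78.1 in knockout spermatids, against 4606 ± 8.47 in wild type spermatids, and to 828 ± 6.72 in knockout spermatocytes, against 3102 ± 349 in wild type spermatocytes (SD, n = 2). All 19 measured markers of round and late spermatids were higher in spermatids than in spermatocytes in each genotype. Of 14 pachytene markers, 8 were lower in spermatids than in spermatocytes in the knockout and 7 in wild type, while 3 and 2 were higher. Over all genes, 31.1% were lower and 41.6% higher in the knockout, and 29.4% and 33.7% in wild type. In these bulk preparations, fewer cells of a type and less RNA per cell cannot be told apart.

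Most of the listed genes were higher in round spermatids than in late spermatocytes, in both genotypes. For each gene with a probe set of its own, 8 in number, the probe set with the highest mean was tested with limma, and it was called at an adjusted p under 0.05 (Benjamini-Hochberg over 45037 probe sets). In the Hr6b knockout, 6 of 8 genes rose in spermatids, against 41.6% of all 18193 genes, and 1 fell, against 31.1% of all. In wild type, 5 of 8 rose, against 33.7% of all, and 0 fell, against 29.4% of all. At an unadjusted p under 0.05, 1 of the 8 was lower in wild type, which was Ldha. Median log2 fold changes over the 8 genes were 2.18 in the knockout and 1.68 in wild type, beside 0.21 and 0.15 over all genes.

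Hexokinase 1, encoded by Hk1, starts glycolysis by phosphorylating glucose. Its signal was 13513 and 11734 in knockout spermatids, 9285 and 10135 in wild type spermatids, 1507 and 1226 in knockout spermatocytes and 1578 and 1026 in wild type spermatocytes. Both spermatid arrays of each genotype lay far above its spermatocyte arrays. Hk1 was 9.26-fold higher in knockout spermatids than in knockout spermatocytes (log2 fold change 3.21, standard error 0.19, adjusted p = 1.76e-07 from limma) and 7.62-fold higher in wild type (2.93, adjusted p = 3.94e-07). A further probe set of Hk1 rose by 3.40 in the knockout and 3.75 in wild type on the log2 scale. The probe set that names Hk1 together with Rpl17 genes went the other way, at -0.94 and -0.89, and cannot be assigned to Hk1.

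Aldoa encodes the aldolase that splits fructose bisphosphate. Its lead probe set had a signal of 3342 and 3578 in knockout spermatids, 2694 and 3065 in wild type spermatids, 885 and 934 in knockout spermatocytes and 892 and 791 in wild type spermatocytes. The spermatid arrays were above the spermatocyte arrays in each genotype, by 3.80-fold in the knockout (log2 fold change 1.93, standard error 0.12, adjusted p = 2.49e-07 from limma) and 3.42-fold in wild type (1.77, adjusted p = 5.29e-07). All 5 probe sets of Aldoa rose in both genotypes, by 1.26 to 2.32 on the log2 scale in the knockout and by 0.78 to 2.12 in wild type. The names of all 5 end in _x_at, which the maker gives to sets with probes that can match other transcripts. Aldoart1 and Aldoart2, retrocopies of Aldoa, rose by 4.58 and 4.77 in the knockout and by 5.93 and 5.42 in wild type. Binding of their transcripts by the Aldoa probes was not tested.

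The germ cell enzyme Gapdhs had the largest change of the 8 genes in each genotype. Its signal was 12800 and 12843 in knockout spermatids, 7025 and 7682 in wild type spermatids, 851 and 747 in knockout spermatocytes and 336 and 157 in wild type spermatocytes. The 4 groups did not overlap, and as a ratio the wild type spermatocyte arrays differed most between themselves. Gapdhs was 16.1-fold higher in knockout spermatids than in knockout spermatocytes (log2 fold change 4.01, standard error 0.27, adjusted p = 4.42e-07 from limma) and 32.0-fold higher in wild type spermatids than in wild type spermatocytes (5.00, adjusted p = 9.33e-08).

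Its somatic counterpart Gapdh was measured by control probe sets and by 3 probe sets that also name Gapdh pseudogenes, so these values are less certain. The control probe set for the middle of the transcript had a signal of 2389 and 2355 in knockout spermatids, 1714 and 1824 in wild type spermatids, 1554 and 1538 in knockout spermatocytes and 1227 and 1305 in wild type spermatocytes. With control probe sets included in the fit, a setting added after the data were seen, it rose in spermatids by 0.62 in the knockout (adjusted p = 0.000618 from limma) and by 0.48 in wild type (adjusted p = 0.00343). The probe set at the 3′ end had 0.27 and 0.17 on the log2 scale (adjusted p = 0.0494 and 0.216), and that at the 5′ end had -0.33 and -0.28 (adjusted p = 0.149 and 0.232), so the values at the 2 ends had opposite signs. Of the 3 probe sets shared with pseudogenes, 1 was called higher in spermatids in both genotypes (0.73 and 0.45, adjusted p = 0.00211 and 0.0306). Its signal was low, at 98.8 or less on every array. The others had 0.21 and 0.25 in the knockout and 0.15 for both in wild type, and were not called. They include the set with the highest signal of the 3, from 1985 to 2942.5. The ratio of 3′ to 5′ signal of Gapdh, a measure of RNA integrity, was 1.87 and 1.91 in knockout spermatids, 1.77 and 2.04 in wild type spermatids, 1.25 and 1.25 in knockout spermatocytes and 1.74 and 1.12 in wild type spermatocytes. For Actb the same ratio was higher in spermatocytes, with 1.58 to 1.93 in spermatids and 2.36 to 3.37 in spermatocytes. The part of RNA integrity in the Gapdh values was not tested.

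Phosphoglycerate kinase makes the first ATP of glycolysis. Pgk2 had a signal of 10828 and 11114 in knockout spermatids, 9338 and 9252 in wild type spermatids, 1675 and 1398 in knockout spermatocytes and 1458 and 1069 in wild type spermatocytes. Spermatids were higher by 7.17-fold in the knockout (log2 fold change 2.84, standard error 0.16, adjusted p = 8.93e-08 from limma) and by 7.44-fold in wild type (2.90, adjusted p = 8.58e-08). The change of Pgk2 did not pass a test of the difference between genotypes (-0.05, adjusted p = 0.917).

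Pgk1, on the X chromosome, also rose in spermatids. Its lead probe set had a signal of 423 and 489 in knockout spermatids, 264 and 236 in wild type spermatids, 80.5 and 89.4 in knockout spermatocytes and 84.9 and 81.8 in wild type spermatocytes. The spermatocyte arrays of the genotypes overlapped and both knockout spermatid arrays lay above both wild type spermatid arrays. The change was 5.36-fold in the knockout (log2 fold change 2.42, standard error 0.13, adjusted p = 5.64e-08 from limma), against a log2 fold change of 1.58 in wild type (adjusted p = 1.54e-06). The other probe sets of Pgk1 changed by 3.30 and 2.77 in the knockout and by 1.79 and 1.63 in wild type on the log2 scale. Their names end in _x_at, which the maker gives to sets with probes that can match other transcripts, and their signal in spermatocytes was 35.9 or less. Their lowest values lay at percentiles 38.5 and 39.3 of an array. The table used here has no detection calls, so it is not known whether they were above background there, and their log2 changes may be bounds. Binding of the abundant Pgk2 transcript by Pgk1 probes was not tested.

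Pgam2, the muscle form of phosphoglycerate mutase that germ cells also use, was high in both cell types. Its signal was 11863 and 12091 in knockout spermatids, 13379 and 14038 in wild type spermatids, 9008 and 8228 in knockout spermatocytes and 12234 and 10645 in wild type spermatocytes. It rose in knockout spermatids by 1.39-fold (log2 fold change 0.48, adjusted p = 0.00556 from limma), and its value in wild type was 0.26 (adjusted p = 0.0871), which was called in 4 of 15 alternatives. The wild type arrays lay above the knockout arrays in each cell type, a split of 2 against 2 arrays that gives p = 0.333 in an exact test.

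The lactate dehydrogenases interconvert pyruvate and lactate, and neither was called higher in spermatids. Ldhc was near the top of the range of every array, with 5 to 9 probe sets above its lead probe set, and whether the range of the array limits its changes was not tested. Its signal was 25833 and 25884 in knockout spermatids, 26839 and 26517 in wild type spermatids, 25943 and 25803 in knockout spermatocytes and 25506 and 25351 in wild type spermatocytes. All 8 arrays lay close together. Its log2 fold change between cell types in the knockout was -0.0008, against 0.07 in wild type (adjusted p = 0.995 and 0.605 from limma).

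Ldha, the somatic counterpart, had a signal of 8959 and 8998 in knockout spermatids, 9389.5 and 9270 in wild type spermatids, 12034 and 11460 in knockout spermatocytes and 11602 and 10656 in wild type spermatocytes. In each genotype the spermatid arrays were below the spermatocyte arrays. Ldha fell in knockout spermatids by 0.39 on the log2 scale (adjusted p = 0.0108 from limma), and its value in wild type was -0.25 (adjusted p = 0.0763). The knockout call was lost after cyclic loess (adjusted p = 0.623) and after omission of knockout spermatocyte replicate 1 (0.0708). With the medians of expressed autosomal probe sets set equal, which adds 0.61 to every change in the knockout and 0.37 in wild type, Ldha had 0.22 and 0.12, Ldhc had 0.60 and 0.44 (adjusted p = 0.000484 and 0.00507), and Pgam2 had 1.08 and 0.63, so the directions of Ldha and Ldhc depend on the scaling.

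**Figure D1:**
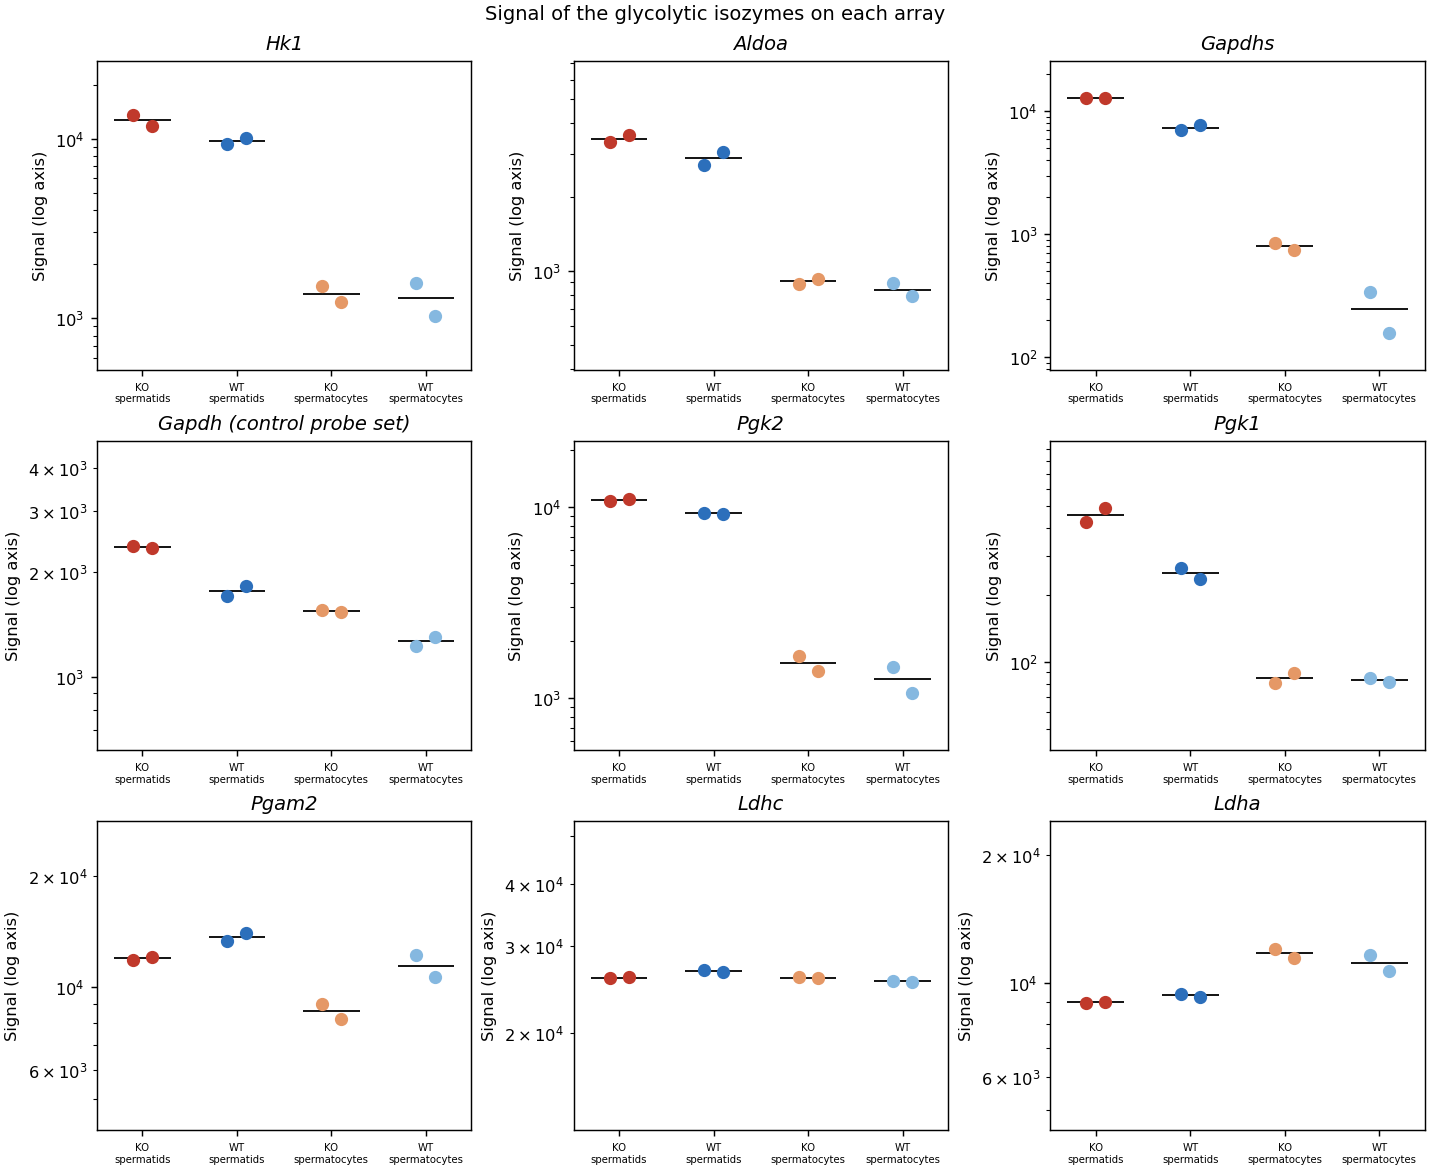
Signal (log axis) of the glycolytic isozymes with a probe set, on each of the 8 arrays, in knockout and wild type spermatids and spermatocytes. Points are arrays and bars are means of 2 arrays. Hk1, Aldoa, Gapdhs, Pgk2 and Pgk1 are higher in spermatids than in spermatocytes in both genotypes, while all Ldhc points lie between 25351 and 26839.

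**Figure D2:**
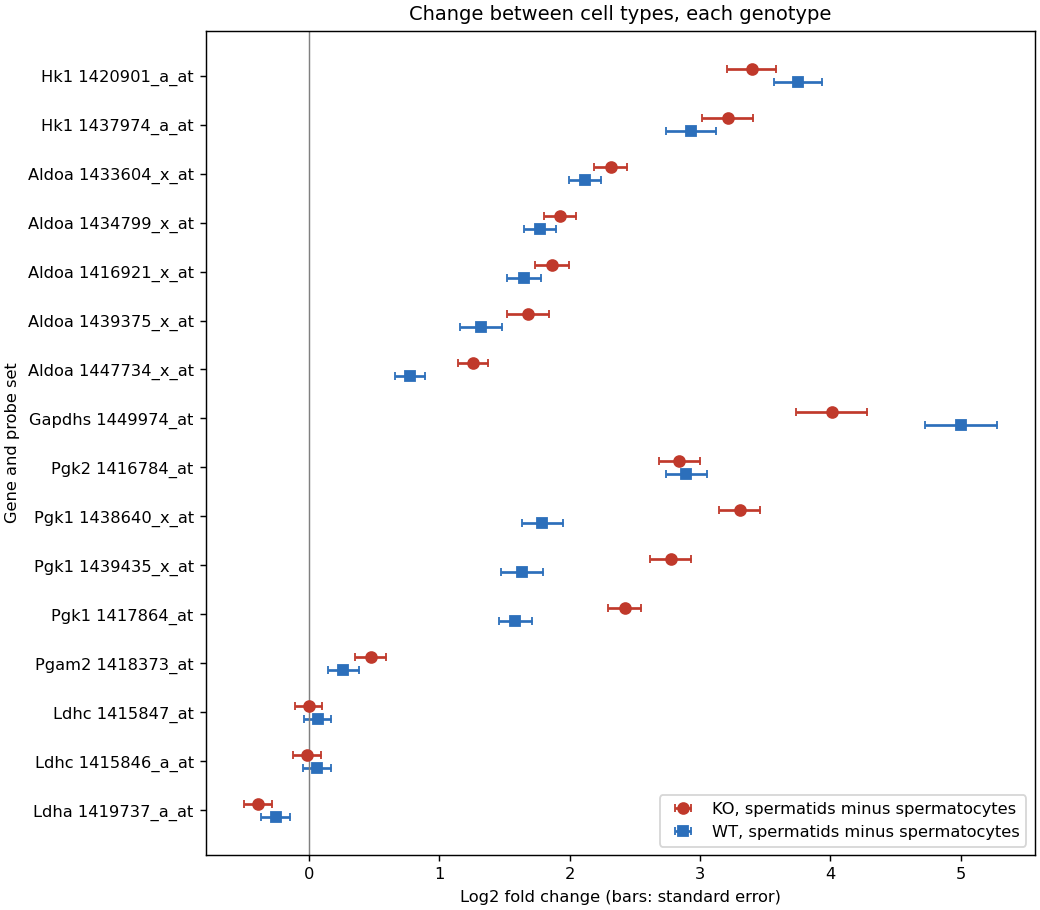
Log2 fold change of spermatids over spermatocytes for the 16 probe sets that name a listed gene alone, in the Hr6b knockout (circles) and in wild type (squares). Bars are standard errors from limma. All 3 Pgk1 probe sets lie further right in the knockout than in wild type, and Gapdhs lies further left.

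How far each germ cell isozyme moved against its somatic counterpart was described as the change of the log2 difference of the 2 probe sets. It is the change in spermatids relative to spermatocytes. The unknown affinity of each probe set cancels in it only where the signal follows the transcript, which may fail near background or the top of the range. The change is given with no test and, after ±, the square root of the summed variances of the spermatid and spermatocyte arrays (2 a group). That is the SD of a difference between single arrays, not the error of the mean change. Pgk2 gained 0.42 ± 0.32 on Pgk1 in the knockout and 1.31 ± 0.30 in wild type. The 4 differences between a spermatid and a spermatocyte array ran from 0.13 to 0.71 in the knockout, below the 1.04 to 1.58 of wild type. With the mean of the 3 Pgk1 probe sets in place of the lead probe set, Pgk2 gained 0.0086 in the knockout and 1.23 in wild type, values that rest in part on the low spermatocyte signal of the _x_at probe sets. The knockout minus wild type difference of the gain was -0.89 on the log2 scale. Taken apart, Pgk2 rose by 2.84 and Pgk1 by 2.42 in the knockout, against 2.90 and 1.58 in wild type.

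Gapdhs gained 3.39 ± 0.12 on the Gapdh control probe set in the knockout and 4.52 ± 0.84 in wild type, with array differences from 3.29 to 3.49 and from 3.90 to 5.13. The wild type value was 5.11 without replicate 1 and 3.92 without replicate 2 of the wild type spermatocytes. Ldhc gained 0.39 ± 0.044 on Ldha in the knockout, against 0.32 ± 0.080 in wild type, and the array differences of 0.35 to 0.42 and 0.26 to 0.38 overlapped. After cyclic loess they were 0.18 and 0.17.

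**Figure D3:**
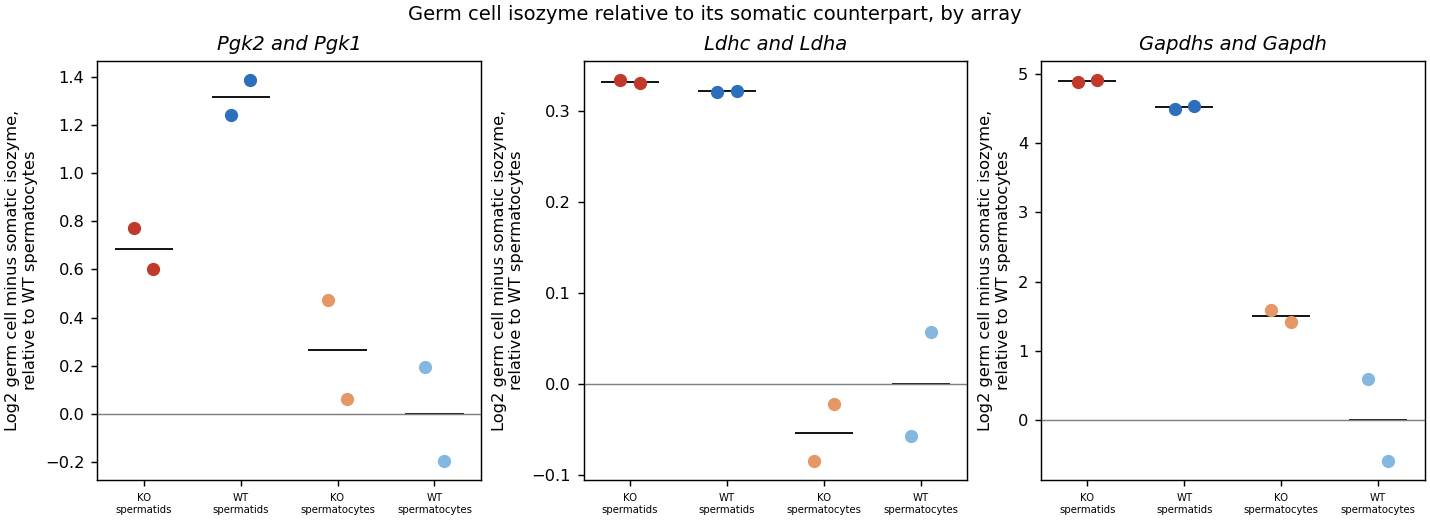
Log2 difference between the germ cell and the somatic isozyme on each array, with the mean of wild type spermatocytes set to 0, for Pgk2 with Pgk1, Ldhc with Ldha, and Gapdhs with the Gapdh control probe set. Points are arrays and bars are means of 2 arrays. The step between spermatids and spermatocytes for Pgk2 with Pgk1 is 0.42 in the knockout, against 1.31 in wild type.

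In round spermatids, Pgk1 was called between genotypes, and the other 7 lead probe sets were not. Knockout spermatids exceeded wild type spermatids by 1.82-fold (log2 fold change 0.87, standard error 0.13, adjusted p = 0.00214 from limma), and the other Pgk1 probe sets had 1.44 and 0.92 (adjusted p = 0.000635 and 0.00477). This is 1 of 8 genes higher, against 6.93% of all genes, and 0 of 8 lower, against 12.9% of all. At an unadjusted p under 0.05, 0 of the 8 were lower. The Pgk1 call held in 15 of 15 alternatives, with adjusted p from 0.000727 to 0.021. Pgk2 had 0.24 (adjusted p = 0.367) and was not called. Both knockout spermatid arrays lay above both wild type arrays, a split that gives p = 0.333 in an exact test. Gapdhs had 0.80 (adjusted p = 0.0824) and was called in 5 of 15 alternatives, among them the 4 spermatid arrays fitted alone (adjusted p = 0.00656) and each omission of a wild type spermatocyte array (adjusted p = 0.00275 for both). Aldoa had 0.27 on its lead probe set (adjusted p = 0.187), and 1 of its 5 probe sets was called, with 0.46 (adjusted p = 0.0252). Hk1 had 0.38 (adjusted p = 0.244). The Gapdh control probe set for the middle of the transcript had 0.42 (adjusted p = 0.0283 with control probe sets included), while its 3′ and 5′ sets did not pass. Pgam2, Ldhc and Ldha had -0.19, -0.04 and -0.06.

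Markers of other cell types were counted beside the spermatid difference of Pgk1, and most were not called. Of 13 Sertoli cell markers measured, 4 were higher in knockout spermatids, among them Aard and, named after its value was seen, Inha, and 9 were not called. At an unadjusted p under 0.05, 7 of the 13 were higher and 0 lower. Clu and Vim, which with Aard had large changes between cell types, were not among the 7. The summed signal of the 13 was 1371 and 1324 in knockout spermatids and 851 and 957 in wild type spermatids. In spermatocytes, where the Pgk1 difference did not pass (0.03, adjusted p = 0.974 from limma), the summed signal was 5848 and 7698 in the knockout and 5862 and 7914 in wild type. The Sertoli cell sums were thus higher in spermatocytes than in spermatids in each genotype, while the signal of Pgk1 was lower there. A signal of 100 or more was reached by 5 of the 13 in knockout spermatids and by 3 of the 13 in wild type spermatids. With limma, 2 of 7 blood cell markers, 1 of 8 peritubular and vascular markers and 0 of 4 Leydig cell markers were higher in knockout spermatids. Of the 4 Leydig cell markers, 1 was higher at an unadjusted p under 0.05. Over all genes, 6.93% were higher and 12.9% lower there, and whether a marker list differed from these shares was not tested. Of 11 markers of spermatogonia and early spermatocytes, 2 were higher in knockout spermatids, Uchl1 (1.41, adjusted p = 0.00441 from limma) and Sohlh1 (1.08, adjusted p = 0.00104), and 1 was lower, Tex15 (-0.51, adjusted p = 0.0147), all named after their values were seen. The summed signal of the 11 was 3644 and 3654 in knockout spermatids and 4606 and 4650.5 in wild type spermatids. The part of RNA from other cells in the Pgk1 difference between knockout and wild type spermatids was not tested.

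In late spermatocytes, the knockout exceeded wild type by 3.48-fold for Gapdhs (log2 fold change 1.80, standard error 0.27, adjusted p = 0.0113 from limma), 1 of 8 genes higher against 2.22% of all genes, and 0 of 8 were lower against 0.511% of all. At an unadjusted p under 0.05, 1 of the 8 was lower, which was Pgam2. The Gapdhs call was lost without replicate 1 (adjusted p = 0.135) or replicate 2 (0.0537) of the knockout spermatocytes and in a fit of the 4 spermatocyte arrays only (0.104). Many markers of round and late spermatids were also higher there. Of 19, 12 were higher in knockout spermatocytes, and their summed signal was 39742 and 29157 in knockout spermatocytes and 13498 and 9086 in wild type spermatocytes. The spermatocyte signal of Gapdhs was 6.23% of the spermatid signal in the knockout, against 3.35% in wild type, and the median over the 19 markers was 5.19% and 3.29%. The part of spermatid RNA in the Gapdhs difference was not tested. Pgk2 had a log2 fold change of 0.29 (adjusted p = 0.567). The lead probe sets of Hk1, Aldoa, Pgk1, Ldhc and Ldha had 0.10, 0.11, 0.03, 0.02 and 0.08. Pgam2 had -0.41 (adjusted p = 0.17). Both of its knockout arrays lay below both wild type arrays, a split that gives p = 0.333 in an exact test. Pgam2 was called with a trended and robust variance prior (adjusted p = 0.00832).

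**Figure D4:**
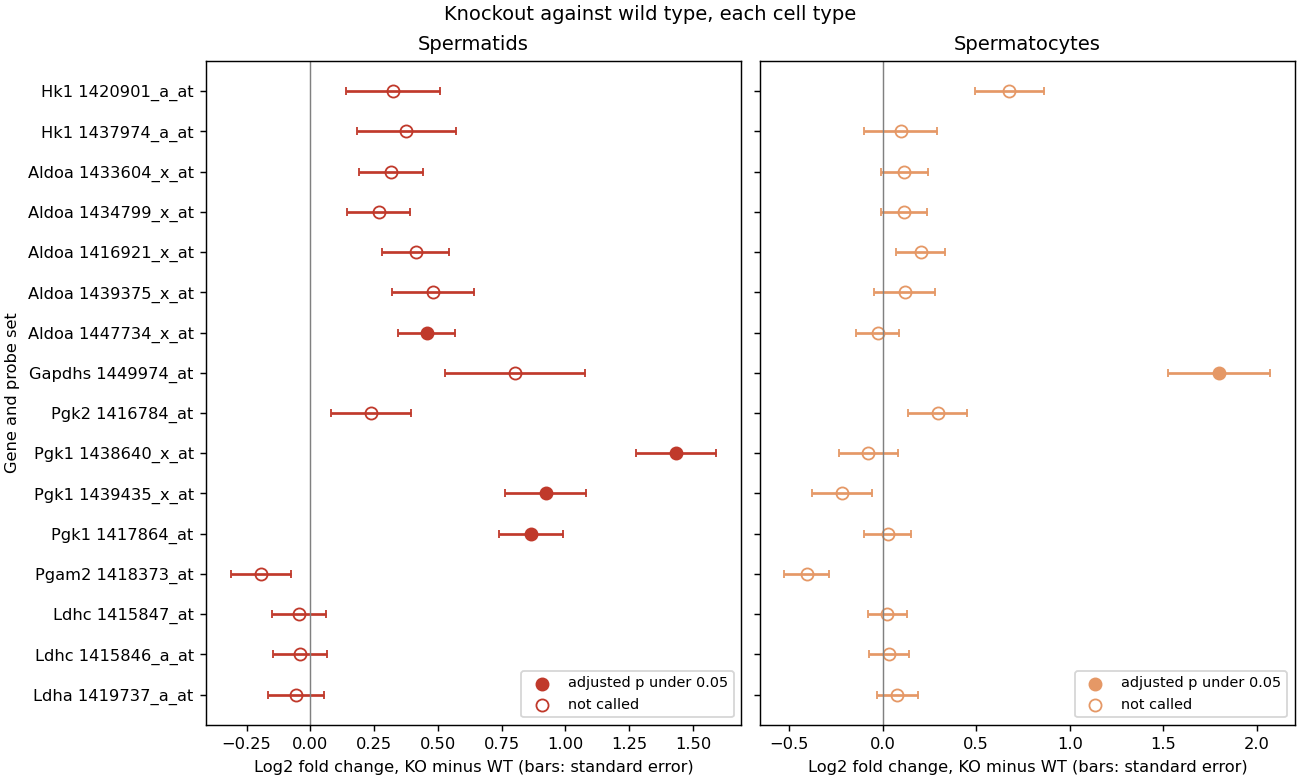
Log2 fold change of Hr6b knockout over wild type in spermatids and in spermatocytes for the 16 probe sets that name a listed gene alone, with separate axis ranges. Bars are standard errors from limma and filled points have an adjusted p under 0.05. In spermatids the 3 Pgk1 probe sets and 1 of 5 Aldoa probe sets are filled, and in spermatocytes Gapdhs is.

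Whether the change between the cell types itself differed between genotypes was tested as an interaction. It was called for Pgk1, 1 of 8 genes against 6.72% of all genes, with a difference of 0.84 on the lead probe set (standard error 0.18, adjusted p = 0.0328 from limma) and of 1.51 and 1.14 on the others (adjusted p = 0.0101 and 0.0261), whose spermatocyte signal was low. The call of the lead probe set was lost in 7 of 14 alternatives, without either knockout spermatocyte array (adjusted p = 0.139 and 0.0744), without replicate 1 of the wild type spermatocytes (0.0549), without either knockout spermatid array (0.064 and 0.0768) and without either wild type spermatid array (0.0715 and 0.0964). The value stayed between 0.74 and 1.16 in all 14. For Gapdhs the difference was -0.99 (adjusted p = 0.168). Over the 14 alternatives it ran from -1.55 to -0.44, and the value of -1.55 was that without replicate 1 of the wild type spermatocytes. Hk1, Aldoa, Pgam2, Pgk2, Ldhc and Ldha had differences between -0.13 and 0.28, and they did not pass in the alternatives run.

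Of 21 other enzymes of glycolysis measured, 11 were higher and 8 lower in knockout spermatids than in knockout spermatocytes, beside 41.6% and 31.1% of all genes. In wild type 9 were higher and 6 lower, beside 33.7% and 29.4% of all genes. Between genotypes, 6.93% of all genes were higher and 12.9% lower in knockout spermatids, and 2.22% and 0.511% in knockout spermatocytes. These shares of all genes stand beside the counts of this list and of those that follow. Whether a list differed from them was not tested. Aldoart1 and Aldoart2, testis-specific retrocopies of Aldoa, had the largest rises, with log2 fold changes of 4.58 and 4.77 in the knockout and 5.93 and 5.42 in wild type. Aldoart1 had a signal of 2811 and 2925 in knockout spermatids, 3139 and 2920 in wild type spermatids, 130.5 and 110.4 in knockout spermatocytes and 59.9 and 41.3 in wild type spermatocytes. Pkm, the pyruvate kinase of most tissues, rose by 2.80 and 1.93, with a signal of 2321 and 2235 in knockout spermatids, 1065 and 1364 in wild type spermatids, 306 and 349.7 in knockout spermatocytes and 314 and 317 in wild type spermatocytes. Eno3, the muscle form of enolase, fell by 2.23 and 2.25. Between the genotypes, Pkm was higher by 0.92 in knockout spermatids (adjusted p = 0.00265 from limma) and held in 14 of 14 alternatives. The others called in spermatids, named after their values were seen, were Hk3 (0.44), Pfkm (-0.68), the muscle form of phosphofructokinase, and Pgam1 (-0.71), the somatic counterpart of Pgam2. Pgam1 held in 14 of 14 alternatives, Pfkm in 13 and Hk3 in 5. In spermatocytes 1 of 21 was called, Aldoart1, higher by 1.27 in the knockout (adjusted p = 0.00612 from limma).

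Among 10 regulators of glycolytic flux, 4 were higher and 5 lower in knockout spermatids than in knockout spermatocytes, and 2 and 4 in wild type. The strongest rise was that of Pfkfb3, which makes the activator of phosphofructokinase, by 4.16 and 4.47, and its relative Pfkfb2 fell by 2.92 and 2.55. Hif1a, a transcription factor of the hypoxia response and a regulator of glycolytic genes, fell by 1.37 and 1.85, and Tigar, which removes the same activator, fell by 1.19 and 1.06. The signal in spermatids was 58.9 or less for Hif1a and 78.9 or less for Tigar. Whether these were above background is not known, so the sizes of these falls may be bounds. Pfkfb3 was also higher in the knockout in both cell types, by 0.94 in spermatids (adjusted p = 0.00605 from limma) and 1.24 in spermatocytes (0.00663), with a signal of 1364 and 1436 in knockout spermatids, 699 and 762 in wild type spermatids, 86.6 and 70.6 in knockout spermatocytes and 39.2 and 27.8 in wild type spermatocytes. The spermatocyte difference stood beside the higher spermatid markers given for Gapdhs (12 of 19), and the part of spermatid RNA in it was not tested. Pfkfb2 was lower in knockout spermatids (-0.55, adjusted p = 0.036 from limma) in a call that held in 6 of 14 alternatives. Hif3a, named after its value was seen, was higher by 0.46 (adjusted p = 0.0359), and its call held in 6 of 13.

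Of 13 genes for sugar and lactate transport, 6 rose and 4 fell in knockout spermatids relative to spermatocytes, and 4 and 4 in wild type. Carriers of lactate and pyruvate moved in opposite directions. Slc16a7, which encodes MCT2, rose by 2.46 and 2.49, and Slc16a1, which encodes MCT1, fell by 2.07 and 2.08. The glucose carrier Slc2a3 fell by 0.86 and 0.71, and the fructose carrier Slc2a5 rose by 0.54 and 0.84. Slc2a3 was no longer called in the knockout under the equal medians described for Ldha (adjusted p = 0.0666). Between genotypes, 1 was higher and 1 lower in knockout spermatids, Khk (0.45), which encodes ketohexokinase, and the sugar carrier Slc2a8 (-0.55), both named after their values were seen, in calls that held in 7 and 6 of 14 alternatives, and 0 of 13 were called in spermatocytes with limma (0 at an unadjusted p under 0.05).

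Of 14 genes for the entry of pyruvate into mitochondria, 4 rose and 6 fell in each genotype. Pdk3, an X-linked kinase that blocks pyruvate dehydrogenase, rose by 4.44 in the knockout, against 4.51 in wild type, and Pdp1, the phosphatase that reactivates it, rose by 4.11 and 4.29. Pdk2 rose by 1.37 and 1.52, and Pcx, which encodes pyruvate carboxylase, fell by 1.72 and 1.87. Pdk3 was 0.44 higher in knockout than in wild type spermatids, and Dlat and Pdhx, 2 subunits of the dehydrogenase complex named after their values were seen, were lower (-0.51 and -0.47). These calls held in 7 of 14 alternatives for Pdk3, 4 for Dlat and 6 for Pdhx.

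Of 10 genes for proteins of the sperm tail that hold or neighbour glycolytic enzymes, 6 rose and 0 fell in knockout spermatids, and 7 rose and 0 fell in wild type. Cabyr, a calcium-binding protein of the fibrous sheath, rose by 4.88 and 5.67, Ropn1 by 4.23 and 5.03, and the anchoring proteins Akap3 and Akap4 by 4.18 and 4.92 and by 3.77 and 5.18. In spermatocytes 3 were higher in the knockout, Akap4 by 1.88, Odf1 of the outer dense fibres by 1.65 and Ropn1 by 0.90, with the spermatid markers given above. The Ropn1 call held in 6 of 14 alternatives. In spermatids 1 of 10 was lower in the knockout, Spag16 (-0.53, adjusted p = 0.0154 from limma), named after its value was seen, and the call held in 10 of 14.

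**Figure D5:**
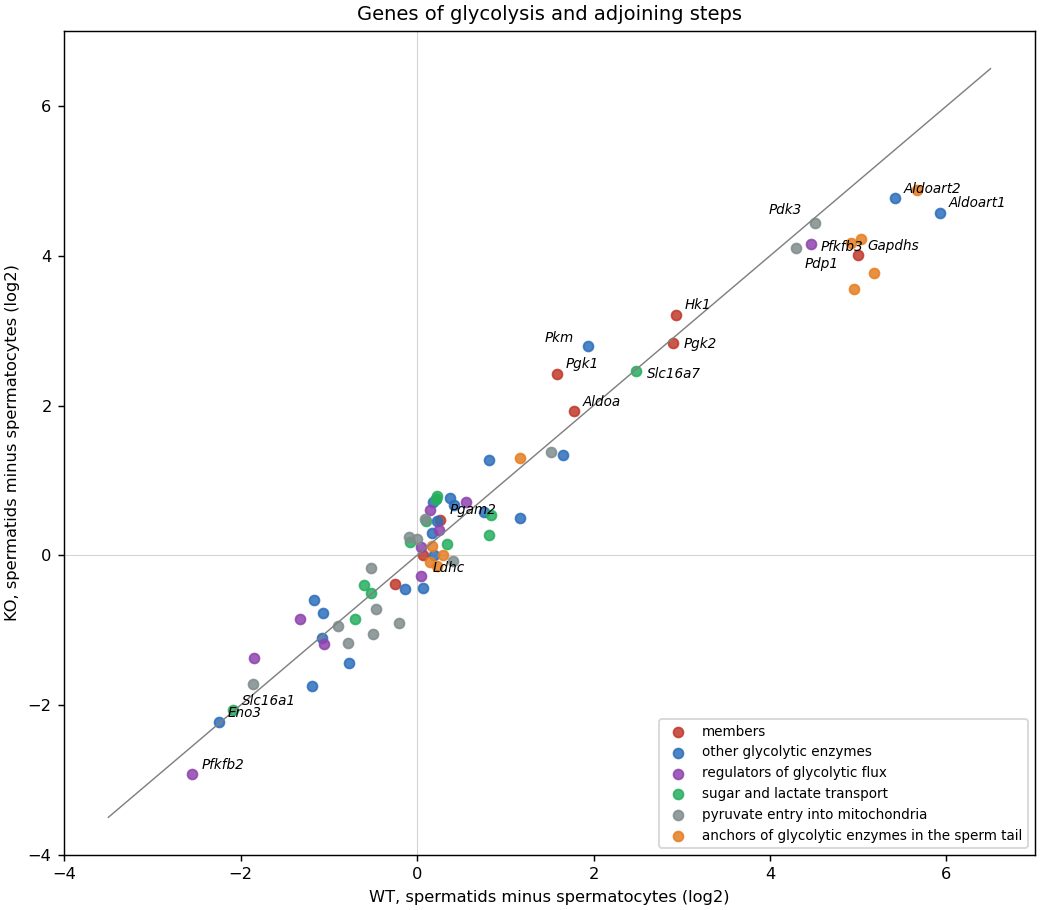
Log2 fold change of spermatids over spermatocytes in the Hr6b knockout (vertical axis) and in wild type (horizontal axis) for the listed isozymes and the genes of glycolysis and adjoining steps. Points are genes, each by its lead probe set, and the line marks equal change. Pkm and Pgk1 lie above the line and Aldoart1 and Gapdhs below it.

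The genes whose values over the 8 arrays were most like those of the germ cell isozymes were found by the Euclidean distance of centred log2 values among 9988 genes with a signal of 100 or more on at least 4 arrays. For Pgk2 they were Fgd2 (distance 0.23), Knop1 (0.28) and Ddhd1 (0.29). Ddhd1, which encodes a phospholipase, had a signal of 7648 ± 106 in knockout spermatids, 7517 ± 130.4 in wild type spermatids, 1191 ± 37.6 in knockout spermatocytes and 902 ± 171 in wild type spermatocytes (SD, n = 2). For Gapdhs they were Lelp1 (0.47), Atl3 (0.51) and Smcp (0.51), which encodes a cysteine-rich protein of sperm mitochondria and belongs to the spermatid markers. Smcp had 16334 ± 791 in knockout spermatids, 10843 ± 1321 in wild type spermatids, 1332 ± 184.5 in knockout spermatocytes and 399 ± 157 in wild type spermatocytes. For Ldhc they were Pebp1 (0.05), Serf1 (0.06) and Stip1 (0.10). Pebp1 had 22093 ± 199.6 in knockout spermatids and 22266 ± 30.8 in wild type spermatocytes.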

How the data were processed

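The authors hybridised RNA of late spermatocytes and round spermatids, 2 arrays for each of 4 groups, to Affymetrix mouse genome arrays and deposited log2 values made with RMA (background correction, quantile normalization and probe summary over all arrays). These values were used as deposited. Quantile normalization gives every array the same distribution, so a change in most transcripts at once is removed. The number of arrays limits the precision, and an exact test of 2 against 2 arrays cannot go below p = 0.333.

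Group means were fitted in limma 3.58.1 (R 4.3.3) over 45037 probe sets, with 64 control probe sets left out, 4 residual and 5.85 prior degrees of freedom and Benjamini-Hochberg adjustment, and called at an adjusted p under 0.05. The platform annotation gave 34945 probe sets 1 gene, 932 several and 9160 none. A gene was represented by its probe set with the highest mean. Up to 4 genes of each pathway list were named, those with the largest change among genes called in both genotypes, and any gene that differed between genotypes by 1 or more on the log2 scale. The members and the lists were chosen with earlier results of these data known. The alternatives were cyclic loess, equal medians of expressed autosomal probe sets, a filter at a signal of 100, a trended and robust prior, the 4 arrays of a comparison alone, the mean of a gene's probe sets, a replicate block and the omission of each array. The model was tested on simulated data.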

Additional observations from a re-analysis of the deposited data

Results flagged for a closer look

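These genes were singled out because the change between spermatids and spermatocytes differed between Hr6b knockout and wild type in the interaction test of limma. Pgk1 changed more in the knockout, by 0.84 on the log2 scale (adjusted p = 0.0328), and so did Pkm, by 0.87 (adjusted p = 0.04). Aldoart1 changed less in the knockout (-1.35, adjusted p = 0.0188), as did the tail genes Akap4 (-1.41, adjusted p = 0.0248) and Odf1 (-1.39, adjusted p = 0.0292). The calls held for Pgk1 in 7 of 14 alternatives and, of 13 alternatives, for Aldoart1 in 8, Akap4 in 7, Odf1 in 6 and Pkm in 6. Aldoart1, Akap4 and Odf1 also exceeded wild type in knockout spermatocytes, beside the spermatid markers, and the part of spermatid RNA in these differences was not tested. Pgam1 (-0.66, adjusted p = 0.0498) and the mitochondrial pyruvate carrier Mpc1 (-0.70, adjusted p = 0.0439), named after their values were seen, passed in 1 and 2 of 13 alternatives. Groups of 2 arrays are too small to look for single arrays that stand apart.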

How the results depend on the processing

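Of the results on single isozymes under the alternatives, 536 kept their direction and their side of the threshold, 28 turned direction, 16 gained a call and 12 lost one. For pathway genes 939 kept both, 141 lost the call and 2 turned direction. Of the counts and isozyme differences, 180 stayed close and 29 moved. The causes were not tested.

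After cyclic loess, Ldhc had 0.11 between cell types in the knockout, -0.00049 between genotypes in spermatocytes, 0.094 in spermatids and 0.095 for the interaction. Ldha had 0.14 in spermatids and 0.082 for the interaction, Pgk2 had 0.19 for the interaction and Pfkm had 0.12 between cell types in the knockout. With medians set equal, Ldhc had 0.60 between cell types in the knockout, -0.0015 in spermatocytes, 0.16 in spermatids and 0.16 for the interaction. Ldha had 0.22 and 0.12 between cell types in knockout and wild type, 0.15 in spermatids and 0.10 for the interaction. Pgam2 had 0.014 in spermatids, Pgk2 had 0.18 for the interaction and Pfkm had 0.17 between cell types in the knockout. With the mean of a gene's probe sets, Pgk1 had -0.089 in spermatocytes and Hk1 had -0.036 for the interaction.

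With 1 array left out, the change of Ldhc between cell types in the knockout ranged from -0.0047 (without knockout spermatocyte replicate 2) to 0.0031 (without replicate 1), with 0.00064 without knockout spermatid replicate 1. In spermatocytes, Hk1 ranged from -0.22 (without wild type replicate 2) to 0.41 (without wild type replicate 1), with -0.053 without knockout replicate 1, and Pgk1 had -0.049 without knockout replicate 2 and -0.00077 without wild type replicate 2. The interaction of Hk1 ranged from -0.030 to 0.59 and that of Pgk2 from -0.28 to 0.17, between the omission of wild type spermatocyte replicate 1 and that of replicate 2, and Pgk2 had 0.077 without knockout spermatocyte replicate 1.

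The counts of called probe sets were 28353 between cell types in the knockout, 24016 in wild type, 717 between genotypes in spermatocytes, 6514 in spermatids and 2073 for the interaction. They were 15303 and 14898 between cell types with the filter, 36945 in wild type and 10733 in spermatids with equal medians, 80 in spermatocytes with the 4 arrays alone, and 1201 after cyclic loess and 3325 with the trended prior for the interaction. Of the 8 isozyme genes, 3 were called in spermatids after cyclic loess, 3 with equal medians and 2 with the 4 arrays alone, and 2 in spermatocytes with the trended prior. After cyclic loess, Ldhc gained 0.18 on Ldha in the knockout and 0.17 in wild type. With the mean of probe sets, low Pgk1 ones included, Pgk2 gained 0.0086 on Pgk1 and Gapdhs gained 3.82 on Gapdh in the knockout. With 1 array left out, calls ranged from 119 to 999 in spermatocytes, 2588 to 7268 in spermatids and 228 to 2197 for the interaction, and isozyme genes from 0 to 1 in spermatocytes, 1 to 2 in spermatids and 0 to 1 for the interaction. A lone array is then taken to vary like the other groups.

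Replicate numbers are shared by the groups, but correlations of same-numbered arrays ran from -0.13 to 0.14 and the labels name no shared litter or batch. With a replicate block all 40 isozyme results kept their side, with Pgk1 at an adjusted p of 0.0454 for the interaction, and 4 of 78 pathway results lost the call. Probe set calls with the block were 28028, 23610, 686, 6090 and 1725.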
